A study of Mus musculus with 4 samples.

Results

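The genes described are 10 Kruppel-like factor (Klf) genes, Klf2, Klf3, Klf4, Klf5, Klf6, Klf7, Klf9, Klf10, Klf13 and Klf16, taken by their symbols from count tables that hold 17 Klf genes among 23420 genes in all. RNA was sequenced from wild-type E14 mouse embryonic stem cells, a single established line grown without feeder cells on gelatin, in serum and leukemia inhibitory factor (LIF). One group of 2 libraries was sampled at 0 h and a second group of 2 libraries after 24 h in 1 µM ATRA (all-trans retinoic acid, which binds and activates nuclear receptors of the RAR family). The concentration is the one in the titles, and a treatment label of the same samples has a millimolar unit. The comparison asks how each Klf transcript differed between treated and 0 h cells. Because the control is the 0 h sample, ATRA and a day of further culture cannot be told apart, and the sources used here do not say whether the 0 h cells had vehicle or whether LIF was kept during treatment. Separate cultures are not named for the replicates, so p-values measure library-to-library spread alone, and that spread may be technical.

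Kruppel-like factors are transcription factors with zinc fingers at the C-terminal end that bind GC-rich boxes and CACCC boxes in promoters and enhancers, and they differ in the N-terminal part that recruits activators or repressors. In mouse embryonic stem cells Klf2, Klf4 and Klf5 are known as partly redundant members of the naive pluripotency network, with Klf4 under LIF and STAT3 and Klf2 tied to Oct4. Klf6 and Klf7 are broadly expressed activators, Klf3 is a repressor that binds CtBP, and Klf9, Klf10, Klf13 and Klf16 bind the corepressor Sin3.

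The libraries held between 11086233 and 31005634 counts in genes, with both ATRA libraries under both controls. The ATRA libraries differed from each other along the GC content of transcripts, with a median log2 ratio of replicate 2 to replicate 1 of 0.85 in the lowest decile of genes by GC and −1.30 in the highest, against −0.01 and −0.31 between the controls. Median log2 fold changes ran from 1.03 in the lowest of these deciles to −1.72 in the highest. Each fold change is therefore given from an uncorrected fit and from a fit in which each library's GC trend was removed (GC-corrected), a step that removes any GC-related difference whatever its origin. Levels are in CPM, read counts scaled to a common library size with TMM factors. The stem cell markers (8 genes) summed to 3619 and 3621 CPM at 0 h and 1649 and 1302 CPM with ATRA, with Zfp42, Esrrb and Utf1 lower in the test and 6 of 8 lower after GC correction. Markers of extraembryonic endoderm summed to 26.5 and 27.2 against 56.0 and 84.7 CPM, with Sox17 and Afp at 4 or fewer counts in each library, and 0 of 6 tested markers passed edgeR's test uncorrected (5 higher at an unadjusted p under 0.05, 4 with DESeq2) against 5 higher after GC correction. Sums were 166 and 141 against 19.8 and 22.8 CPM for mesoderm markers, 226 and 165 against 120 and 115 CPM for fibroblast markers, 71.28 and 70.02 against 64.89 and 66.63 CPM for trophectoderm markers, and 394 and 332 against 306 and 412 CPM for neural markers, of which Sox1 and Dcx rose and Tubb3 fell. T, a mesoderm marker, fell, and 0 of 7 trophectoderm and 0 of 7 fibroblast markers passed edgeR's test uncorrected (3 in each list at an unadjusted p under 0.05, 2 and 3 with DESeq2). Of all genes tested, 41.7% were at an unadjusted p under 0.05 uncorrected, and DESeq2 called 12.5% higher and 18.0% lower. With GC correction edgeR called 8.52% higher and 7.67% lower. After GC correction Cdx2 (2.59) of the trophectoderm markers, Pdgfrb (1.04) and Dcn (1.89) of the fibroblast markers and Meox1 (3.44) of the mesoderm markers rose, and the mesoderm markers T (−3.33) and Mixl1 (−1.93) fell. The part of other cell types in the Klf values was not tested.

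Of the 10 Klf genes, all of which had enough counts to be tested, Klf2 fell and 0 rose in the uncorrected fit (quasi-likelihood test of edgeR, p adjusted over 14256 genes by Benjamini-Hochberg, threshold 0.05). Over all genes tested, 0.407% fell and 0.723% rose in that fit. After GC correction Klf5, Klf9 and Klf10 fell and 0 rose, against 7.67% and 8.52% of all genes, and Klf2 was no longer among them. The median log2 fold change of the 10 genes was −1.06 uncorrected, beside −0.02 over all genes, and −0.38 after GC correction, beside 0.01. In scaled CPM both ATRA libraries lay under both controls for 8 of the 10 and above them for 1, Klf6, against 41.5% and 40.0% of all genes tested, and the groups overlapped for Klf3. Klf10 is counted among the 8 although its libraries of replicate 2 were all but level, at 76.75 CPM at 0 h and 76.73 CPM with ATRA. At an unadjusted p under 0.05 there were 6 of the 10 genes uncorrected (1 higher, 5 lower) and 4 after GC correction (0 higher), beside 41.7% and 38.2% of all genes. DESeq2 called 0 higher and 4 lower, which were Klf2, Klf4, Klf5 and Klf16, against 12.5% and 18.0% of all genes. The samples are bulk RNA, so fewer cells with a transcript and less of it per cell cannot be told apart.

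**Figure D1:**
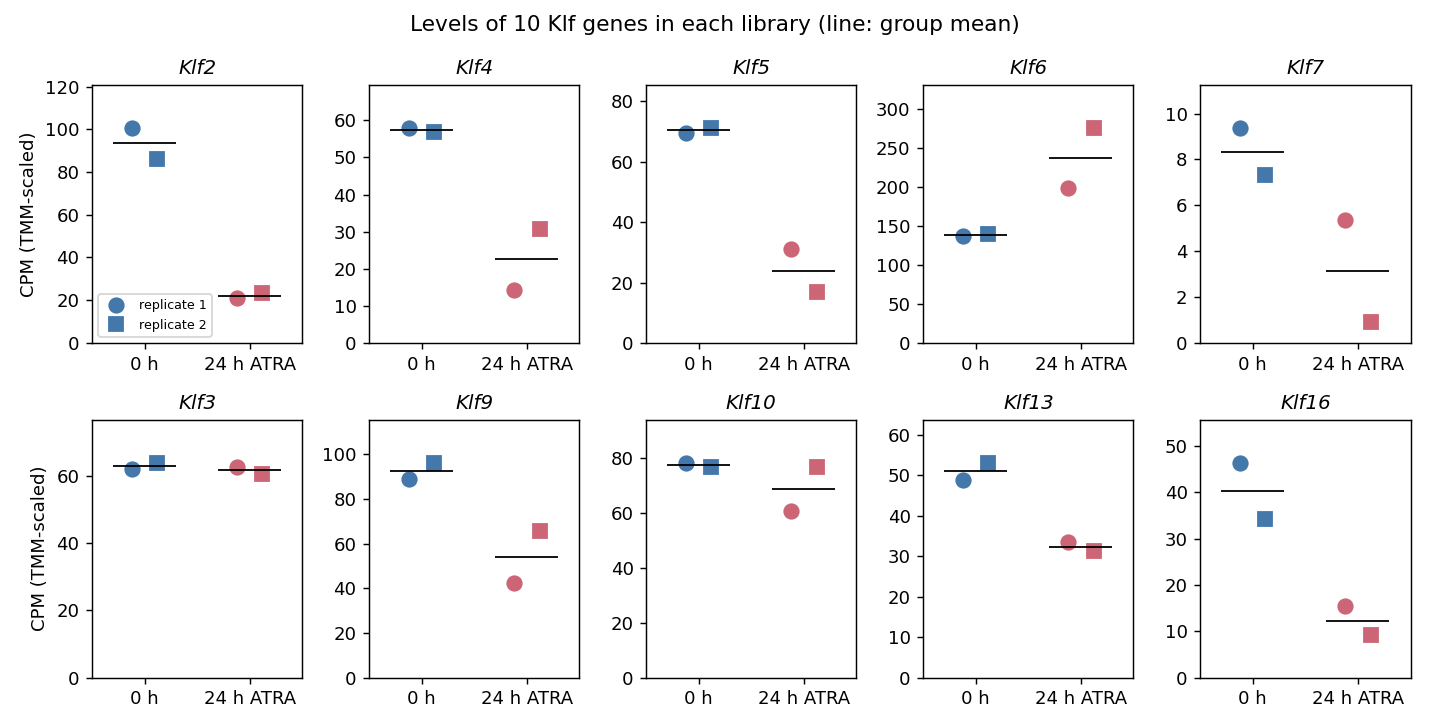
CPM, scaled with TMM factors, of each of the 10 Klf genes in the 2 libraries at 0 h (blue) and the 2 libraries after 24 h with ATRA (red), with circles for replicate 1, squares for replicate 2 and a line at each group mean; each panel has its own axis, starting at 0. Klf2 went from 101 and 86.1 to 20.9 and 23.3 CPM, Klf6 lay higher in both ATRA libraries, and the Klf3 groups overlapped.

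Klf2, which can sustain naive pluripotency when overexpressed, lies on chromosome 8 from 72319033 to 72321656 on the plus strand (GENCODE M21, GRCm38), and its transcript of 1847 bases in 3 exons has a GC content of 61.6%, in the highest decile. It stood at 101 and 86.1 CPM at 0 h and at 20.9 and 23.3 CPM with ATRA. The ATRA libraries were close to each other and far under the controls, and their mean was 23.7% of the control mean. The uncorrected log2 fold change was −2.08 ± 0.28 (SE, n = 2 against 2, edgeR adjusted p = 0.0399). This call was lost without control replicate 1 (value of −1.97) or 2 (−2.19), and with edgeR's earlier quasi-likelihood method (edgeR adjusted p = 0.0514). In the fits that left out 1 control, genes called lower over the whole table were not fewer than with all libraries. After GC correction the value was 0.13 ± 0.47 (edgeR adjusted p = 0.862). The log2 ratio of ATRA replicate 2 to replicate 1 was 0.16 for Klf2 before the correction, whereas the median of its decile of genes was −1.30, and the correction widened it to 1.51. GC-corrected log2 CPM was then 5.42 and 5.61 at 0 h and 4.73 and 6.24 with ATRA, with 1 ATRA library on each side of the controls. Leaving out ATRA replicate 1 gave a GC-corrected value of 0.73 and leaving out ATRA replicate 2 gave −0.77, with opposite signs. Each of these fits holds a lone ATRA library, so the spread within the ATRA group is not measured in it.

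Klf4, one of the Yamanaka reprogramming factors, lies on chromosome 4 from 55527143 to 55532466 on the minus strand, and its transcript has 54.6% GC. It stood at 58.0 and 56.7 CPM at 0 h and at 14.3 and 30.8 CPM with ATRA. The ATRA libraries differed from each other by more than 2-fold, and both lay under the controls. The uncorrected log2 fold change, −1.35 ± 0.42, did not pass (edgeR adjusted p = 0.0823), and the GC-corrected value was −0.22 ± 0.59 (0.809). Within the ATRA group the log2 ratio of replicate 2 to replicate 1 was 1.10, against a median of −0.91 for its decile of genes by GC, and 1.95 after correction. As for Klf2, the GC-corrected value turned with the library left out, from 0.48 without ATRA replicate 1 to −1.48 without ATRA replicate 2.

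Klf5, known in the early embryo for the inner cell mass and trophectoderm, lies on chromosome 14 from 99298691 to 99315036 on the plus strand, and its transcript has 47.9% GC, near the middle of all genes. It stood at 69.6 and 71.2 CPM at 0 h and at 31.0 and 16.9 CPM with ATRA, and the groups did not overlap. The log2 fold change was −1.55 ± 0.37 uncorrected (edgeR adjusted p = 0.0672) and −1.77 ± 0.34 after GC correction (0.0338), where Klf5 passed. That pass was lost without control replicate 1 (value of −1.78) or 2 (−1.78). Few genes of the whole table passed in those fits, so the loss does not set Klf5 apart. Without ATRA replicate 1 the GC-corrected value was −2.40, and without ATRA replicate 2 it was −1.33. Of the pluripotency-related members Klf5 was the one whose value changed by less than its SE between the fits.

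The 300 bases around the start of Klf2 and Klf4 are shown because both belong to the naive pluripotency network and both windows hold the box that Kruppel-like factors themselves bind. That of Klf9 is shown as the window with 0 matches. RefSeq windows of 300 bases (GRCm38.p6) were at hand for 7 of the 10 genes. Capitals mark matches to CCNCNCCC on either strand, which can overlap GGGCGG, the GC box.
Klf2, chr8:72318812-72319111, plus strand: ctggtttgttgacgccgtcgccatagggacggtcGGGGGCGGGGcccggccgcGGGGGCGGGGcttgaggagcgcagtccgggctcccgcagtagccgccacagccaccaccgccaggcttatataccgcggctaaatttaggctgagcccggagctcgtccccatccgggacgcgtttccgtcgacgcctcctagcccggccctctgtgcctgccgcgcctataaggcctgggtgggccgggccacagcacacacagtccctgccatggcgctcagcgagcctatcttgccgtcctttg
Klf4, chr4:55532426-55532725, minus strand: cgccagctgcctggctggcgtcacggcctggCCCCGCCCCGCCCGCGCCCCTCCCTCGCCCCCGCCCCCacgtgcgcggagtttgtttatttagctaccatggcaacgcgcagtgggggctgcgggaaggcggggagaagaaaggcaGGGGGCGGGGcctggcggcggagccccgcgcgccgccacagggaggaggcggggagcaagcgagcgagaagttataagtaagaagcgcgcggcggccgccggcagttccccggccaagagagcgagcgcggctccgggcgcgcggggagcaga
Klf9, chr19:23140976-23141275, plus strand: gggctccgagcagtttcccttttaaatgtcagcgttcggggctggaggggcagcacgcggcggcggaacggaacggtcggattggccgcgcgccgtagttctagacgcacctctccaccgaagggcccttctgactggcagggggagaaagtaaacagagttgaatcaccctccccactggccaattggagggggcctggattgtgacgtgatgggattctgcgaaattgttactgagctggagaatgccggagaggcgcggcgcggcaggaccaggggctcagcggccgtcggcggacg

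The Klf2 window held 4 matches and 32 CpG sites at 69.3% GC, and the Klf4 window 9 matches and 40 CpG sites at 74.3% GC. The Klf9 window held 0 matches and 28 CpG sites at 63.3% GC. Matches were found in 6 of the 7 windows, 10 of them in Klf3, 8 in Klf7, 5 in Klf13 and 3 in Klf6, and in 49.5% of all 32851 promoter windows of that length. GGGCGG was in the same 6 windows and in 35.7% of all. Tandem pairs of the nuclear receptor hexamer AGGTCA (with its variant AGTTCA, its variant GGGTCA and its variant GGTTCA), spaced by 5 or by 2 bases on either strand, were in 0 of the 7 windows and in 0.0974% and 0.268% of all windows. The median GC content of all windows was 52.7%, under that of each of the 7 Klf windows, which ran from 58.3% to 76.7%. A match describes the letters and not a binding site.

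Klf6, a ubiquitous activator and tumour suppressor gene on chromosome 13 from 5861482 to 5870394, plus strand, was the 1 member with higher CPM after ATRA. It stood at 138 and 140 CPM at 0 h and at 199 and 276 CPM with ATRA. Both treated libraries lay above both controls, with more distance between themselves than between the controls. Its transcript has 42.4% GC, in a decile of genes whose median uncorrected log2 fold change was 0.82. The log2 fold change of Klf6 was 0.77 ± 0.28 uncorrected (edgeR adjusted p = 0.102), so it did not pass, and −0.06 ± 0.11 after GC correction (0.722), the smallest GC-corrected SE but 1 of the 10 genes.

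Klf7, a relative of Klf6 known for neuronal outgrowth and survival, lies on chromosome 1 from 64029447 to 64122282 on the minus strand and was the scarcest member. It had 299 and 164 counts at 0 h and 76 and 9 counts with ATRA, or 9.37 and 7.30 against 5.37 and 0.928 CPM. ATRA replicate 2 stood far under the other 3 libraries. The log2 fold change was −1.34 ± 0.68 uncorrected and −1.79 ± 0.79 after GC correction (edgeR adjusted p = 0.177 and 0.159), and it passed in neither. Without ATRA replicate 1 the uncorrected value was −3.19, and without ATRA replicate 2 it was −0.64. The value is uncertain in another way too, since 3196 bases of the 7662-base transcript lie opposite the noncoding gene Gm26649, which has no row in the count tables, and the strand setting of the counting is not given in the sources used here.

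Klf3, the CtBP-binding repressor on chromosome 5 from 64803388 to 64832901, plus strand, was level in CPM. It stood at 62.1 and 64.0 CPM at 0 h and 62.8 and 60.7 CPM with ATRA, and the groups overlapped. Its log2 fold change was −0.03 ± 0.26 uncorrected (edgeR adjusted p = 0.937) and −0.53 ± 0.18 after GC correction (0.0960), which did not pass either. At 45.7% GC it lies in a decile of genes with a median uncorrected log2 fold change of 0.60. The transcript overlaps the noncoding gene Gm20033 on the opposite strand over 404 bases.

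Among the Sin3-binding members, Klf9 and Klf10 fell after GC correction while Klf13 and Klf16 passed in neither fit. Klf9, a glucocorticoid and thyroid hormone responsive gene on chromosome 19 from 23141226 to 23168134, plus strand, stood at 89.1 and 96.3 CPM at 0 h and 42.6 and 65.5 CPM with ATRA. Its groups did not overlap. Its log2 fold change was −0.78 ± 0.31 uncorrected (edgeR adjusted p = 0.117) and −1.10 ± 0.16 after GC correction (0.0203). GC-corrected log2 CPM went from 6.64 and 6.73 to 5.38 and 5.76, so the ATRA libraries lay nearer each other than uncorrected.

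Klf10, also known as an early gene induced by transforming growth factor beta (TGF-beta), lies on chromosome 15 from 38291463 to 38300706, minus strand. It stood at 78.3 and 76.7 CPM at 0 h and at 60.6 and 76.7 CPM with ATRA, with ATRA replicate 2 at the level of control replicate 2 and ATRA replicate 1 under it. The uncorrected log2 fold change was −0.18 ± 0.27 (edgeR adjusted p = 0.624). After GC correction log2 CPM was 6.49 and 6.43 at 0 h and 5.88 and 5.93 with ATRA, the ATRA libraries came together, and the log2 fold change of −0.56 ± 0.11 passed (0.0331). The GC-corrected calls of Klf9 and Klf10 were lost without control replicate 1 (values of −1.15 and −0.53) or 2 (−1.07 and −0.59). Few genes of the whole table passed in those fits, so the loss does not set Klf9 and Klf10 apart.

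Klf13, on chromosome 7 from 63886351 to 63938915, minus strand, stood at 48.8 and 53.1 CPM at 0 h and 33.4 and 31.2 CPM with ATRA. Replicates were close in both groups, and the groups did not overlap. Its log2 fold change was −0.66 ± 0.27 uncorrected (edgeR adjusted p = 0.122) and 0.54 ± 0.30 after GC correction (0.248), with a transcript GC content of 55.5%. Klf16, on chromosome 10 from 80567124 to 80577321, minus strand, stood at 46.4 and 34.3 CPM at 0 h and 15.4 and 9.18 CPM with ATRA. Every library had its own level, and the lower control was more than 2-fold above the higher treated library. Its log2 fold change was −1.71 ± 0.38 uncorrected (edgeR adjusted p = 0.0662) and 0.18 ± 0.23 after GC correction (0.590), with 60.4% GC. The values of Klf2, Klf13, Klf16 and Klf6 thus had opposite signs in the 2 fits.

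**Figure D2:**
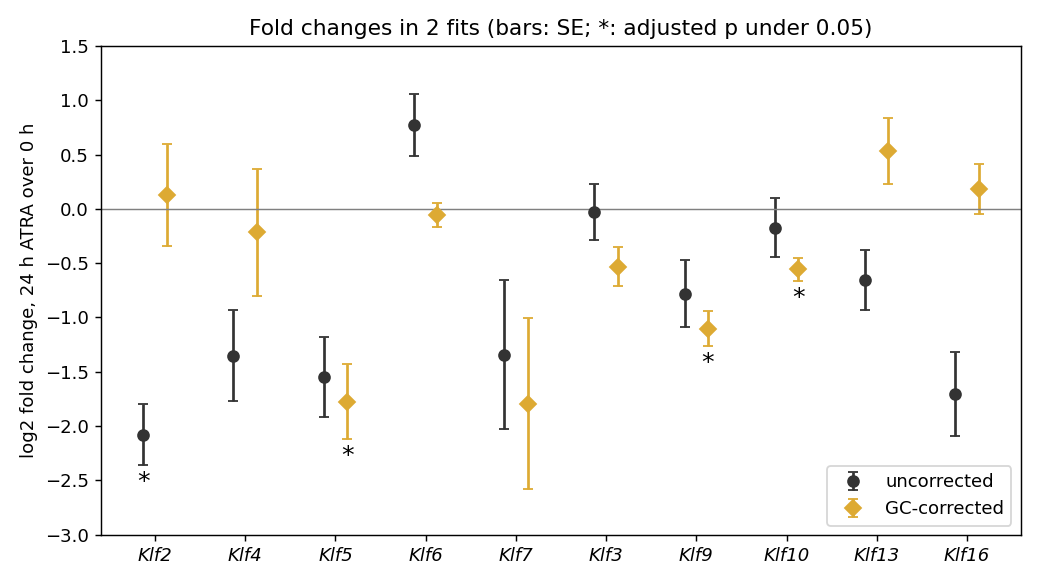
Log2 fold change of 24 h ATRA over 0 h for the 10 Klf genes, with circles for the uncorrected fit, diamonds for the GC-corrected fit, bars for the SE and an asterisk for an edgeR adjusted p under 0.05. Klf2 passed uncorrected at −2.08 and stood at 0.13 after correction, while Klf5, Klf9 and Klf10 passed after correction at −1.77, −1.10 and −0.56.

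Against the median of all genes in their GC decile, 8 of the 10 genes lay under it, and Klf13 and Klf16 above it. By construction, as many genes of a decile lie under its median as above it. Klf6 lay under and Klf16 above by margins far under their SE. The highest decile, that of Klf2, spans 58.2% to 71.3% GC, and the GC-corrected value of Klf2 was 0.13. The 4 members of highest GC content, Klf2, Klf16, Klf13 and Klf4, had uncorrected log2 fold changes of −2.08, −1.71, −0.66 and −1.35, beside medians of −1.72, −1.72, −0.90 and −0.90 in their deciles. Klf6, at 0.77, lay close to the median of 0.82 in its decile. The remaining members of lower GC content lay under the medians of their deciles, which were 0.60 for Klf3 and Klf7 and 0.36 for Klf5, Klf9 and Klf10. Ratios between the ATRA replicates did not follow the trend for every member either. Klf5 (−0.87) and Klf7 (−2.53) had log2 ratios of replicate 2 to replicate 1 well under the medians of 0.27 and 0.48 in their deciles, and Klf4 (1.10) well above its own.

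**Figure D3:**
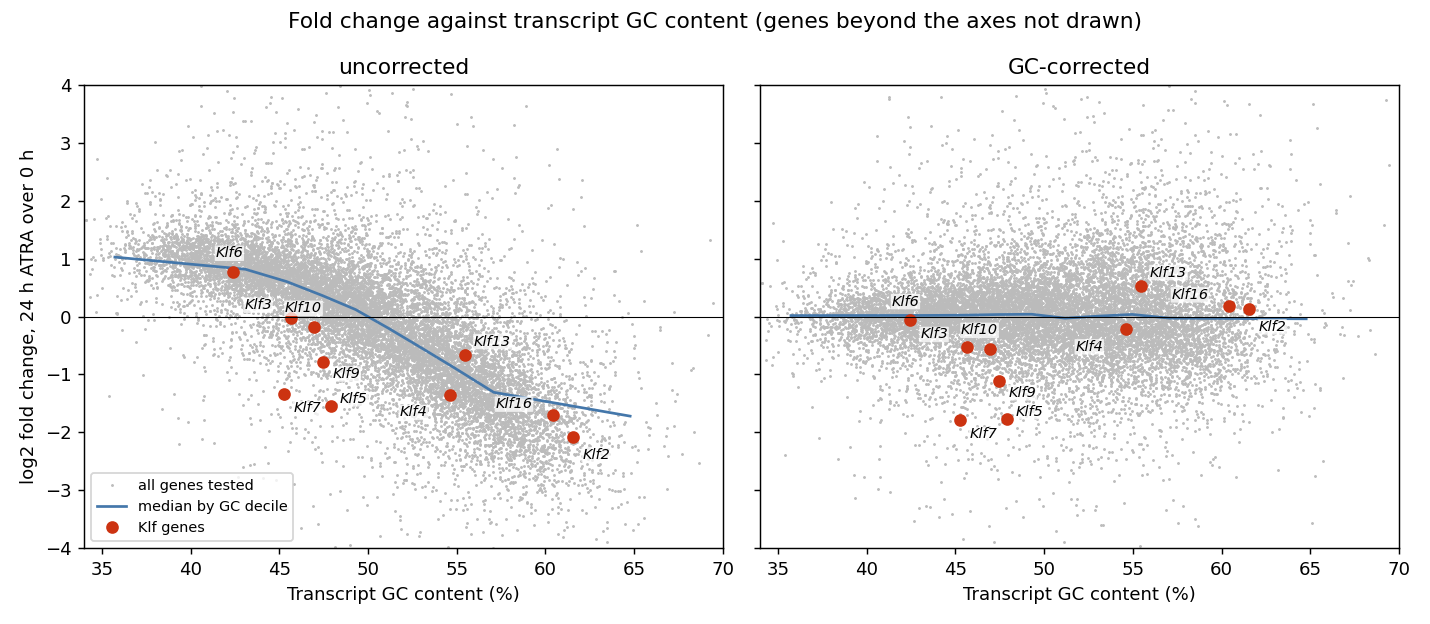
Log2 fold change of 24 h ATRA over 0 h against transcript GC content in percent for all genes tested (grey), with the median of each decile of genes by GC (blue line) and the 10 Klf genes (red), uncorrected on the left and GC-corrected on the right. Uncorrected, the medians fell from 1.03 to −1.72 across the deciles, with Klf2 at −2.08 and Klf16 at −1.71; corrected, Klf5, Klf7 and Klf9 lay farthest under 0.

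Levels of different genes were compared as CPM per kb of the longest coding transcript, without GC correction, and the order depends on both choices. At 0 h Klf2 was highest at 50.6 ± 5.55 (mean ± SD, n = 2), followed by Klf6 at 32.9 ± 0.33, Klf10 at 25.5 ± 0.35, Klf5 at 21.0 ± 0.35, Klf9 at 20.7 ± 1.13, Klf4 at 18.9 ± 0.28, Klf16 at 15.1 ± 3.21, Klf3 at 12.1 ± 0.26, Klf13 at 7.96 ± 0.47 and Klf7 at 1.09 ± 0.19 CPM per kb. The neighbours Klf5 and Klf9 were within the spread of their libraries. Both Klf16 libraries (17.3 and 12.8 CPM per kb) lay above both Klf3 libraries (11.9 and 12.3). The means of Klf16 and Klf3 differed by less than the SD of Klf16. With ATRA the order was Klf6 at 56.2 ± 12.9, Klf10 at 22.6 ± 3.74, Klf9 at 12.04 ± 3.62, Klf2 at 11.97 ± 0.91, Klf3 at 11.8 ± 0.28, Klf4 at 7.46 ± 3.85, Klf5 at 7.14 ± 2.96, Klf13 at 5.05 ± 0.23, Klf16 at 4.598 ± 1.65 and Klf7 at 0.41 ± 0.41 CPM per kb. From Klf9 to Klf3 and from Klf4 to Klf16, neighbours were within the spread of their libraries. Per kb of the median coding transcript, a length chosen after seeing the data, Klf13 (85.0), Klf4 (66.8), Klf10 (57.8) and Klf3 (53.2) had higher mean levels at 0 h than Klf2 (50.6 CPM per kb).

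Summed over the 10 genes, the length-scaled level was 211 and 201 CPM per kb at 0 h and 126 and 153 CPM per kb with ATRA. Klf2 made up 25.9% and 23.2% of that sum at 0 h and 9.02% and 8.24% with ATRA, while Klf6 made up 15.5% and 16.5% at 0 h and 37.5% and 42.7% with ATRA. Neither share overlapped between the groups, and an exact permutation test of 2 against 2 cannot go under p = 1/3, so it was not used. After GC correction the Klf2 share was 12.63% and 14.04% at 0 h and 11.3% and 24.9% with ATRA, and the Klf6 share 23.7% and 23.3% against 35.5% and 23.5%. On that scale Klf6 and Klf10 (16.1% and 15.1%) had larger shares at 0 h than Klf2. The groups then overlapped for both genes, with the ATRA libraries on both sides of the controls for Klf2 and ATRA replicate 2 between the controls for Klf6. With the median coding transcript length mean shares with ATRA were 20.1% for Klf6 and 4.31% for Klf2.

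**Figure D4:**
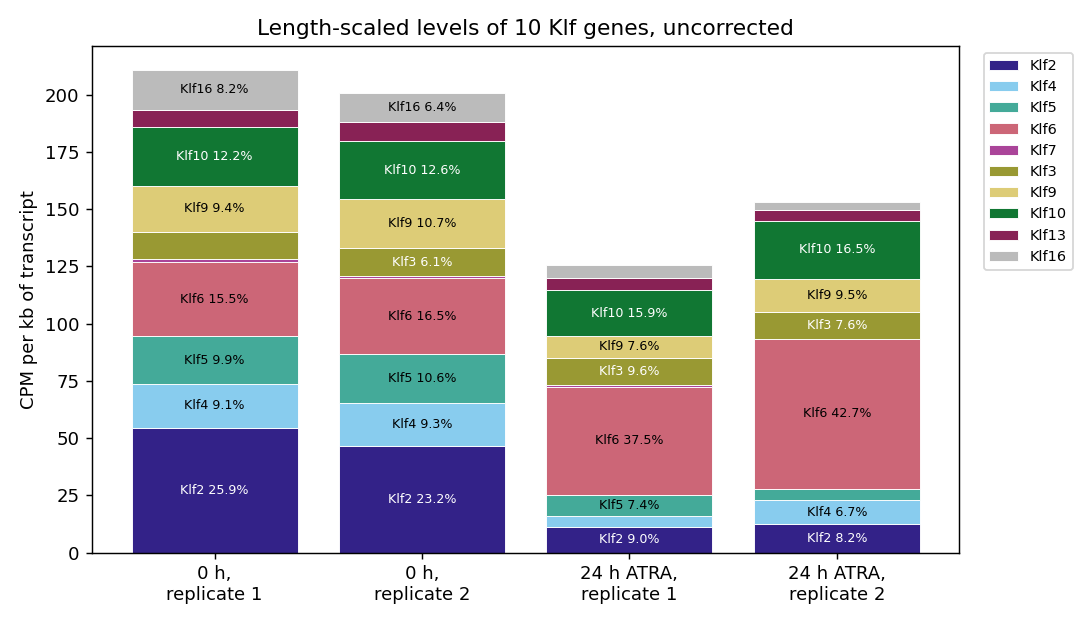
Stacked bars of the length-scaled level, in CPM per kb of transcript from 0, of the 10 Klf genes in each library without GC correction; printed percentages are shares of the library's sum. Klf2 went from 25.9% and 23.2% of the sum to 9.02% and 8.24%, and Klf6 from 15.5% and 16.5% to 37.5% and 42.7%.

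Sequence shared between family members was measured on their transcripts. Between the longest coding transcripts of any 2 of the 10 genes, read on the same strand, the longest run of identical bases was 26 bases, between Klf6 and Klf7, and lay in the coding part of both. The next was 24 bases, between Klf5 and Klf9, and the run of 20 bases between Klf2 and Klf7 was 1 of 4 of that length. The runs, from GENCODE M21 transcripts, are shown because they are stretches in which the coding parts of 2 members cannot be told apart.
Klf6 and Klf7: gacaggtgtttctccaggtctgacca
Klf5 and Klf9: tcggatgagctgacccgccactac
Klf2 and Klf7: cacacaggtgagaagcctta

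Of all 36-base words in the transcripts, 0 of those of Klf2, Klf6, Klf9, Klf10 and Klf16 occurred in any annotated transcript of another gene on either strand. The share was 0.645% for Klf13, 1.30% for Klf4, 1.63% for Klf5, 7.50% for Klf3 and 41.1% for Klf7, the last 2 with Gm20033 and Gm26649 as the genes that shared most. The words of Klf13 include some found in Klf3, the 1 case in which another Klf or Sp gene shared words of that length. Read length is not given in the sources used here.

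Among 16 further Klf and Sp genes, of which 14 were tested, Sp8 rose and Sp5 and Klf15 fell uncorrected, and after GC correction Sp8 and Sp6 rose and Klf8 and Klf11 fell. Sp8, known for limb and forebrain patterning, went from 4.57 to 28.9 CPM in the group means, with log2 fold changes of 2.65 uncorrected and 2.61 corrected (edgeR adjusted p = 0.0455 and 0.0115). Sp5, a Wnt target, went from 27.1 to 5.08 CPM, at −2.41 (edgeR adjusted p = 0.0432) and −0.33 after correction (0.521). Klf15, known for metabolic control in muscle and liver, went from 9.53 to 1.39 CPM and was at −2.80 (edgeR adjusted p = 0.0499) and −1.79 (0.0581). Klf8, a CtBP-binding repressor, was at −0.36 and −1.19 (edgeR adjusted p = 0.422 and 0.0145), and Klf11, a Sin3-binding relative of Klf10, at −0.71 and −0.83 (0.130 and 0.0333). Klf12, the remaining CtBP-binding repressor, had 16.7 CPM at 0 h and 28.3 CPM with ATRA and did not pass, at 0.75 and 0.18. Klf1, the erythroid factor, Klf14 and Klf17 were at or under 1.44 CPM in every library and passed in neither fit. Of the Sp genes with broad roles, Sp1 was at 0.49 and −0.29 and Sp3 at 1.23 and 0.22, with neither passing.

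Of 12 pluripotency regulators that share targets with Klf2, Klf4 and Klf5, Zfp42 and Esrrb fell uncorrected and 0 rose, with a median of −1.07, and after GC correction 8 fell and 2 rose, with a median of −1.15. Tfcp2l1, a LIF target next to Klf4 in the network, was at −0.76 and −1.14 (edgeR adjusted p = 0.102 and 0.00912). In the LIF and STAT3 list of 10 genes Socs3, the feedback inhibitor, fell uncorrected at −3.07 (edgeR adjusted p = 0.0427). After GC correction 4 of the 10 fell, among them Lifr, the LIF receptor gene, at −1.47 and Socs3 at −1.47, and 3 rose, among them the kinase gene Pim1 at 1.63 (edgeR adjusted p = 0.0108, 0.0109 and 0.0164). Of 18 FGF, ERK and ERK5 genes, 0 passed edgeR's test uncorrected (6 higher and 6 lower at an unadjusted p under 0.05, 3 and 5 with DESeq2), and 4 rose and 3 fell after GC correction, with the ERK feedback genes Spry4 at −1.37 and Spry2 at −1.24 among those that fell (edgeR adjusted p = 0.00835 and 0.0104). The receptor gene Fgfr2, at 1.45, and Dusp6, another ERK feedback gene, at 1.23, were among those that rose (edgeR adjusted p = 0.0114 and 0.0134). Beside these lists, 41.7% of all genes were at an unadjusted p under 0.05 uncorrected, and DESeq2 called 12.5% higher and 18.0% lower. With GC correction edgeR called 8.52% of all genes higher and 7.67% lower.

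Of 12 corepressor genes 0 passed edgeR's test uncorrected (1 higher and 4 lower at an unadjusted p under 0.05, 0 and 3 with DESeq2), and after GC correction Rcor1 rose (0.66), while Ncor1, the most abundant, was at 0.12 and −0.07. The CtBP and Sin3 genes that the repressor members recruit passed in neither fit, with Ctbp1 at −0.93 and 0.38, Ctbp2 at −1.04 and 0.13, Sin3a at 0.01 and −0.19 and Sin3b at −1.36 and −0.27. Of 7 coactivator genes 0 passed in either edgeR fit (1 lower at an unadjusted p under 0.05 uncorrected and 0 corrected, 2 lower with DESeq2), and Smarca4, highest in CPM averaged over the 4 libraries, was at −1.16 and −0.10. Of 12 ubiquitin ligase and turnover genes 0 passed edgeR's test uncorrected (4 higher and 1 lower at an unadjusted p under 0.05, 2 and 1 with DESeq2), and Vhl (0.87) and Smurf2 (0.50) rose after GC correction, with Usp10, highest in CPM averaged over the 4 libraries, at −1.17 and −0.40. In the list of 16 TGF-beta and serum response genes around Klf6 and Klf10, Egr1 fell uncorrected at −2.36 (edgeR adjusted p = 0.0343), and after GC correction Smad3 rose (1.01) and Ier2 (−0.97) and Ier3 (−1.45) fell. For these lists too, the shares over all genes were 41.7% at an unadjusted p under 0.05 uncorrected and, with DESeq2, 12.5% higher and 18.0% lower. With GC correction edgeR called 8.52% of all genes higher and 7.67% lower.

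The genes with the most similar course over the 4 libraries were taken by the Euclidean distance of log2 CPM deviations among 10826 genes with a mean of at least 5 CPM, as a description. For Klf2 they were Loxl4 (distance 0.09), Dnmt3b (0.10) and Rbmxl2 (0.18), with uncorrected log2 fold changes of −2.12, −2.11 and −1.92. For Klf4 they were Gpr4 (0.09), Mixl1 (0.34) and Nr0b1 (0.36), and for Klf5 Tmem98 (0.04), Arl10 (0.06) and Shmt1 (0.06). On the GC-corrected scale Klf2 was nearest to Ctbp2 (0.20) and Psors1c2 (0.23), Klf4 again to Gpr4 (0.10) and Nr0b1 (0.31), and Klf5 to Ap1m2 (0.07) and Slc29a1 (0.08). Gpr4 and Nr0b1 were thus near Klf4 on both scales.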

How the data were processed

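RNA was measured in 4 libraries, and groups and replicate numbers came from the titles. The authors deposited 1 table of raw read counts per gene symbol for each library. Tools listed in the submitters' processing notes, without their roles, are HTSeq 0.6.0, TopHat2 2.0.7, Cuffdiff 2.0.2 and Cufflinks 2.0.2, with the build mm10; the annotation and the strand setting were not given in the sources used here. Summary lines (reads in no gene were 63.4% to 66.2% of counted reads) were left out.

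Counts were fitted with edgeR 4.0.16 in R 4.3.3 (default filter by group, TMM, robust glmQLFit with the newer bias-adjusted deviances, glmQLFTest, Benjamini-Hochberg over 14256 genes, threshold 0.05). The SE is the absolute log2 fold change over the root of its F statistic. For the GC correction, each library's log2 CPM deviations (prior count 2) were regressed robustly (rlm, MASS 7.3.60.0.1) on a natural spline of transcript GC with 5 degrees of freedom. Genes whose mean exceeded 1 on the log2 CPM scale were used, and the fitted trend entered as offsets. GC and length came from the longest coding transcript in GENCODE M21 (21777 symbols matched directly, 1300 through an older symbol, 343 not). Scripts were tested on simulated data.

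Alternatives were DESeq2 1.42.0, its size factors, no filter, libraries left out, a replicate block and a length term. The earlier quasi-likelihood method and another transcript length were added after seeing the data. The members, lists and tests were chosen with earlier results of these data known. Named genes were the 10 members, the first list, in each other list up to 3 called members with the smallest p or, with none, the most abundant, and the 3 nearest patterns of Klf2, Klf4 and Klf5. Dusp6, the CtBP and Sin3 genes and the marker genes named were chosen after their values were seen. Some genes that the rule names are not reported here.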

Additional observations from a re-analysis of the deposited data

How the results depend on the processing

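Genes called higher and lower over the whole table, 103 and 58 uncorrected, became 232 and 371 with DESeq2's size factors in edgeR, 1777 and 2573 with DESeq2's own test, 1214 and 1093 with GC correction, 1110 and 1065 with GC and length correction, 62 and 24 with the earlier quasi-likelihood method and 1254 and 1119 with that method and GC correction. The last 2 settings were chosen after seeing the data. Of the 10 Klf genes, 1 was lower uncorrected, 4 with DESeq2, 3 with GC correction, 3 with GC and length correction, 0 with the earlier method and 3 with that method and GC correction. Leaving out 1 library in turn, with the lone library of its group taken to vary like the other group, gave 18 to 5011 genes higher and 6 to 5278 lower, and among the Klf genes 0 to 3 higher and 0 to 7 lower. The cause was not tested.

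The 2 same-numbered pairs had a correlation of deviations of 0.18, and 2 pairs do not show that the numbers pair the samples. With the replicate block 1350 genes were higher and 3051 lower, 5 Klf genes among the lower, and with GC correction and the block 1362 and 1348, with 4 Klf genes lower. In the fit with GC correction and the block the log2 fold changes were −0.036 for Klf2, −0.064 for Klf6, 0.48 for Klf13 and 0.16 for Klf16. The Klf2 value kept its uncorrected sign there, unlike in the fit with GC correction alone. Both Klf2 values were smaller in size than their SE, 0.29 with the block and 0.47 without it, so neither sign is settled.

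Log2 fold changes that turned sign were, with GC correction, 0.13 for Klf2, −0.0598 for Klf6, 0.54 for Klf13 and 0.18 for Klf16. With GC and length correction they were 0.15, −0.0786, 0.42 and 0.16, and with GC correction and the earlier method 0.0825, −0.0599, 0.52 and 0.16. Over left-out libraries, with and without GC correction, values ran from −2.19 to 0.73 for Klf2, −0.79 to 0.00828 for Klf3, −1.99 to 0.48 for Klf4, −0.17 to 0.98 for Klf6, −0.73 to 0.94 for Klf13 and −2.16 to 0.48 for Klf16. With 3 counts worth 0.0968 to 0.271 CPM, depth limits Klf7, at 9 counts in ATRA replicate 2.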
